A study of Mus musculus with 8 samples.

Results

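Levels of 9 genes that write, read or recruit methylation of lysine 9 of histone H3 (H3K9) were followed in mouse embryos whose fathers did or did not carry a hypomorphic allele of Eed, a subunit of Polycomb repressive complex 2. They are Trim28, Setdb1, Ehmt1, Ehmt2, Suv39h1, Suv39h2, Cbx1, Cbx3 and Cbx5, chosen by symbol for their role, and they make up 9 of the 20667 genes named on the array and 13 of its 55681 probes. Each of the 8 wild-type embryos was collected 8.5 days after mating (E8.5) and measured on its own one-colour Agilent array. In 1 group, 4 embryos had fathers heterozygous for the Eedl7Rn5-1989SB allele (Eed hypo/wt), and in the other, 4 embryos had wild-type fathers (Eed wt/wt). All mothers were wild type, and each group held 2 female and 2 male embryos. The labels put fathers and mothers on a mixed C57bl6/129 background, whereas a supplementary legend of the study names the mothers as C57bl/6J, and the sources used here do not settle which. The embryos themselves did not carry the allele, so the comparison asks whether the father's genotype alone went with a difference in these genes.

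H3K9 methylation marks chromatin that is kept silent, including many retroelements. In the best known route, a KRAB zinc finger protein binds DNA and brings in Trim28 (KAP1), which gathers the methyltransferase Setdb1. Ehmt2 (G9a) and Ehmt1 (GLP) act as a pair that mono- and dimethylates H3K9 in gene-rich chromatin, Suv39h1 and Suv39h2 trimethylate it around centromeres, and the HP1 proteins Cbx5, Cbx1 and Cbx3 bind the mark once it is made.

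Array levels are given as the log2 of the processed spot intensity after each array was shifted so that its 75th percentile was 0. Probes differ in how well they bind, so levels were compared between embryos and never between probes. The number of arrays limits the precision, and between 29207 and 39559 probes were well above background on an array. All 13 probes of the silencing factors were well above background on all 8 arrays, with 0 saturated and 0 outlier spots among them. Cbx3, Cbx5, Ehmt1 and Suv39h2 had 2 probes each and the other genes 1. All 10 markers of the embryo proper, such as Sox2, Tbx6 and Nkx2-5, were well above background. Their summed linear level was 43.1 to 51.0 times the 75th percentile with Eed wt/wt fathers and 43.7 to 49.8 times with Eed hypo/wt fathers. Groups also overlapped for markers of the next tissues. In the same order, primitive erythroid markers summed to 561 to 1260 and 863 to 1090. Yolk sac endoderm markers summed to 567 to 788 and 690 to 715, and trophoblast markers to 13.8 to 44.5 and 15.0 to 43.6. The lowest erythroid and yolk sac sums, 561 and 567, were both in wild-type father replicate 4. Decidual markers, which did not overlap, are given with Trim28. Each slide held the arrays of a single group, which means that an effect of slide and an effect of the father cannot be told apart. The median local background was 50 to 51 with Eed wt/wt fathers and 30, 32, 32 and 133 with Eed hypo/wt fathers. Median log2 levels of negative control spots did not overlap either, at 2.08 to 2.31 and 2.50 to 3.17. The part of these background differences in the probe levels was not tested. The labels give replicates 2 to 4 with Eed wt/wt fathers a shared first part of their embryo code, which the sources used here do not explain. How many males sired each group was not clear from them either, and p-values then measure the spread between these embryos, some of which may share a father.

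Setdb1, Suv39h1, Cbx3 and Cbx5 are the genes whose probes ordered the embryos alike or in reverse, as described after the paternal comparison, so their promoter sequences are shown here. Each runs from 250 bases before the annotated start of the gene to 50 bases after it, 5′ to 3′ on the gene's own strand, and is taken from RefSeq on build GRCm38.p6. Capitals mark every match, on either strand, to GGGCGG (the letters bound by Sp1), CCAAT (NF-Y) or CCGGAAG (ETS factors). The most upstream annotated start is shown where a gene has more than 1.
Setdb1, chr3:95357153-95357452, minus strand: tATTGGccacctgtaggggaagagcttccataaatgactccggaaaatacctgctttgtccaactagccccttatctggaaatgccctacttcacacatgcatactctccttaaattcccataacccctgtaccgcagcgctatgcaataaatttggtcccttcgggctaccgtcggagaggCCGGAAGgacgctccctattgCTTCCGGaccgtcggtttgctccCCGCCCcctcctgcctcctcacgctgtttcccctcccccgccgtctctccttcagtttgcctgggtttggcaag
Suv39h1, chrX:8074711-8075010, minus strand: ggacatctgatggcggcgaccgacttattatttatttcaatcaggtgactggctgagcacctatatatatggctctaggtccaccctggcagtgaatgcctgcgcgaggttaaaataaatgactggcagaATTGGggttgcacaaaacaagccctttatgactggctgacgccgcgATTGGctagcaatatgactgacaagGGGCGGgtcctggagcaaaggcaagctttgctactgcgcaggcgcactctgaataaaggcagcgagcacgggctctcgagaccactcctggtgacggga
Cbx3, chr6:51470366-51470665, plus strand: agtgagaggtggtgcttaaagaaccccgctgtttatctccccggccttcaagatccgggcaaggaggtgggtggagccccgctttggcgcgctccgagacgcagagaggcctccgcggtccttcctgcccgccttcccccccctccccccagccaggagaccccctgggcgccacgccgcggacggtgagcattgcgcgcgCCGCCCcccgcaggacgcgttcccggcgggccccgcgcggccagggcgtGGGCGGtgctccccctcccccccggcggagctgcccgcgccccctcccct
Cbx5, chr15:103239803-103240102, minus strand: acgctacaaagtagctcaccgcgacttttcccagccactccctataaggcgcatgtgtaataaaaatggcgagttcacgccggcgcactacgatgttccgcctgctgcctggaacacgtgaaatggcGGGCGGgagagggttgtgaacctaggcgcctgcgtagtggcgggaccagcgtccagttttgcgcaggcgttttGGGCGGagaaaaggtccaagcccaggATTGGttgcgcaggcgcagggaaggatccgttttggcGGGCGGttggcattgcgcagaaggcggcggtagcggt
None of the matches in these 4 sequences overlaps another. All 9 genes had GGGCGG in at least 1 window, and 12 of the 13 windows annotated for them held it, against 35.7% of 32851 promoters of the same length. CCAAT was found for Cbx5, Setdb1 and Suv39h1 (37.4% of all promoters) and CCGGAAG for Setdb1 (8.86%). The letters TTTCCCGC (E2F factors), in 1.07% of all promoters, were in 0 of the 13 windows. The windows of the silencing factors were rich in CpG, with a median of 29 CpG and 68.3% G and C against 7 and 52.7% over all promoters. A match of letters is a description of the sequence and not a binding site, and promoter composition was not set against the levels.

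No silencing factor passed the test for a difference by the father's genotype. Of the 13 probes, 0 were called at an adjusted p under 0.01 and at least 2-fold, where 0% of all 33105 tested probes were called (limma, Benjamini-Hochberg adjustment). The adjusted p was 1 for every one of them. At an unadjusted p under 0.05 there were also 0 of 13, where 4.34% of all tested probes passed. The median difference of the 13 probes was -0.03 on the log2 scale, with 5 above 0 and 8 below, beside -0.002 over all tested probes. The sign of this median was not stable, and it was 0.03 with normexp and quantile normalization. These are whole embryos, in which fewer cells of a type and less RNA per cell cannot be told apart.

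**Figure D1:**
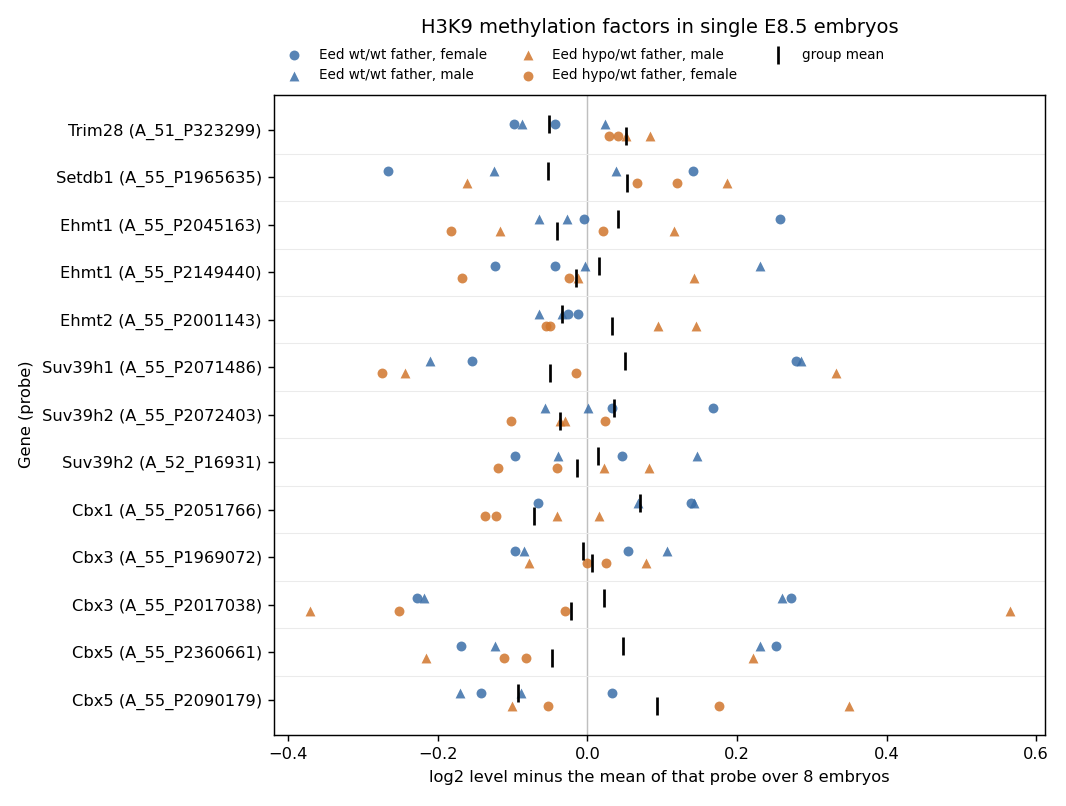
Level of each probe of the 9 silencing factors in the 8 embryos, as log2 level minus the mean of that probe over all embryos; blue points are embryos of Eed wt/wt fathers, orange points those of Eed hypo/wt fathers, circles females, triangles males, and black ticks the group means (n = 4). The groups overlap at every probe but Trim28, and the widest spread is that of the Cbx3 probe A_55_P2017038, 0.94 from lowest to highest.

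Trim28, the co-repressor that links DNA-binding proteins to Setdb1, had the smallest spread within groups of the 13 probes. It measured 5.57, 5.58, 5.62 and 5.69 in replicates 1 to 4 with Eed wt/wt fathers and 5.72, 5.69, 5.75 and 5.71 in replicates 1 to 4 with Eed hypo/wt fathers. The groups did not overlap, with the highest embryo of the first at 5.688 and the lowest of the second at 5.694. This was the case at 1 of the 13 probes, where 3.15% of all tested probes had groups that did not overlap and 1.54% were higher in this direction. The difference was 0.10 (standard error 0.06, 95% interval -0.04 to 0.24), a 1.07-fold ratio, with an adjusted p of 1 from limma. The order of the 2 groups turned on the scaling: they overlapped with arrays aligned on their medians, under quantile normalization and with the percentile taken over detected probes, and the difference was -0.01 under normexp background correction with quantile normalization. The summed level of 4 markers of decidua, the maternal tissue around the embryo, also differed without overlap, at linear values of 11.1 to 15.8 with Eed wt/wt fathers and 7.78 to 8.98 with Eed hypo/wt fathers. Of these markers 3 were well above background on at least 4 arrays and 0 were undetected on every array. Only Prl8a2 among the 3 tested separated the groups, with a log2 difference of -2.46 (adjusted p of 1 from limma). Cryab and Prl6a1 both had a difference of -0.06 with overlapping groups, and Prl3c1, well above background on 2 arrays, was not tested. Their part in the Trim28 values was not tested.

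Setdb1, the methyltransferase that Trim28 gathers at retroelements, varied more within the groups than between them. Its probe measured 1.48, 1.78, 1.89 and 1.62 in replicates 1 to 4 with Eed wt/wt fathers and 1.93, 1.87, 1.59 and 1.81 in replicates 1 to 4 with Eed hypo/wt fathers. The lowest embryos were replicate 1 of the first group and replicate 3 of the second, and the groups overlapped across most of their range. The means were 1.69 ± 0.18 (SD, n = 4) and 1.80 ± 0.15 (SD, n = 4), a difference of 0.11 (standard error 0.12, 95% interval -0.17 to 0.38).

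Ehmt1 and Ehmt2, the partners of the G9a and GLP enzyme, were close to level between groups. The brighter Ehmt1 probe (A_55_P2045163) measured 5.12, 4.79, 4.85 and 4.83 with Eed wt/wt fathers and 4.97, 4.88, 4.74 and 4.68 with Eed hypo/wt fathers, in the order of the replicates. Wild-type father replicate 1 stood above the other 7, and the difference was -0.08 (standard error 0.10, 95% interval -0.32 to 0.16). The second Ehmt1 probe (A_55_P2149440) ranged from 3.76 to 4.12 and from 3.72 to 4.03, with a difference of -0.03 (standard error 0.10). Ehmt2 measured 5.97, 5.95, 5.96 and 5.92 with Eed wt/wt fathers and 6.13, 5.93, 6.08 and 5.93 with Eed hypo/wt fathers. The first group lay within a narrow band, and the second held 2 embryos above it, both male, and 2 inside it, both female. The Ehmt2 difference was 0.07 (standard error 0.07, 95% interval -0.10 to 0.23).

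Suv39h1, which is X-linked, spread further than its autosomal relative Suv39h2. The Suv39h1 probe measured 2.36, 1.87, 1.93 and 2.37 with Eed wt/wt fathers and 1.84, 1.81, 2.41 and 2.07 with Eed hypo/wt fathers. A total of 3 embryos, 1 female and 2 males, lay above 2.3 and came from both groups. The difference was -0.10 (standard error 0.18, 95% interval -0.53 to 0.32). The brighter Suv39h2 probe (A_55_P2072403) measured 6.11, 5.95, 5.98 and 5.89 against 5.92, 5.97, 5.91 and 5.84. All 8 embryos lay within 0.27 of each other at it, against 0.61 at the Suv39h1 probe, and its difference was -0.07 (standard error 0.07, 95% interval -0.24 to 0.10). The second Suv39h2 probe (A_52_P16931) gave -0.03 (standard error 0.08).

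Among the HP1 proteins, which read the mark, Cbx1 had the smallest unadjusted paternal p of all 13 probes. It measured -0.47, -0.54, -0.67 and -0.46 with Eed wt/wt fathers and -0.65, -0.74, -0.59 and -0.73 with Eed hypo/wt fathers. Wild-type father replicate 3 lay among the embryos of the other group, and the rest of the groups were apart. The difference was -0.14 (standard error 0.08, 95% interval -0.32 to 0.04), with an unadjusted p of 0.102 and an adjusted p of 1 from limma. Without wild-type father replicate 3 the unadjusted p became 0.0457, and with normexp and quantile normalization, where the difference was -0.25, it was 0.00629 with an adjusted p of 0.56, in a fit where 7.93% of all tested probes had an unadjusted p under 0.05.

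Cbx3 and Cbx5 each had probes that disagreed in spread or direction. The brighter Cbx3 probe (A_55_P1969072) measured 6.01, 5.87, 5.86 and 6.06 with Eed wt/wt fathers and 5.88, 5.98, 6.03 and 5.95 with Eed hypo/wt fathers, a difference of 0.01 (standard error 0.08). The second (A_55_P2017038) measured 4.17, 3.68, 3.67 and 4.16 against 3.53, 3.65, 4.47 and 3.87. It split both groups into high and low embryos, covered a 1.91-fold range, and had the widest paternal interval, -0.58 to 0.50. The brighter Cbx5 probe (A_55_P2360661) measured 2.77, 2.39, 2.34 and 2.74 with Eed wt/wt fathers and 2.30, 2.40, 2.74 and 2.43 with Eed hypo/wt fathers, with a difference of -0.09 (standard error 0.14). The second Cbx5 probe (A_55_P2090179), which ranged from 1.32 to 1.52 and from 1.39 to 1.84, gave a difference of the other sign, 0.19 (standard error 0.12, 95% interval -0.08 to 0.45).

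Under the scaling reported here, and with the 8 embryos taken as independent, the intervals bound how large a difference between the groups could be. Slide and father are not told apart in them. At all 13 probes the 95% interval lay inside 2-fold in either direction, where 80.1% of all tested probes had such an interval. The bounds ran from -0.58 to 0.50 on the log2 scale, both of them from the second Cbx3 probe. The spread within groups, as residual SD, was between 0.04 (Trim28) and 0.36 (the second Cbx3 probe), with a median of 0.14. It was below the median of all tested probes, 0.21, at 11 of the 13 probes. The bounds depend on the scaling. With arrays aligned on their medians, Cbx1 had a difference of -0.24 and an unadjusted p of 0.534 from limma. As reported these were -0.14 and 0.102, so its interval was wider with the median alignment. With that alignment the Cbx1 probe ran from 2.31 in heterozygous father replicate 3 to 3.71 in wild-type father replicate 2. The intervals also take the embryos as independent. In a fit that let embryos sharing the first part of their code correlate, that correlation was 0.529. There 2.09% of all tested probes had an unadjusted p under 0.05 from limma, beside 4.34% as reported. Intervals from that fit are not given here. The bound of 2-fold therefore holds for the scaling reported here with embryos taken as independent, and does not carry over to the median alignment.

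**Figure D2:**
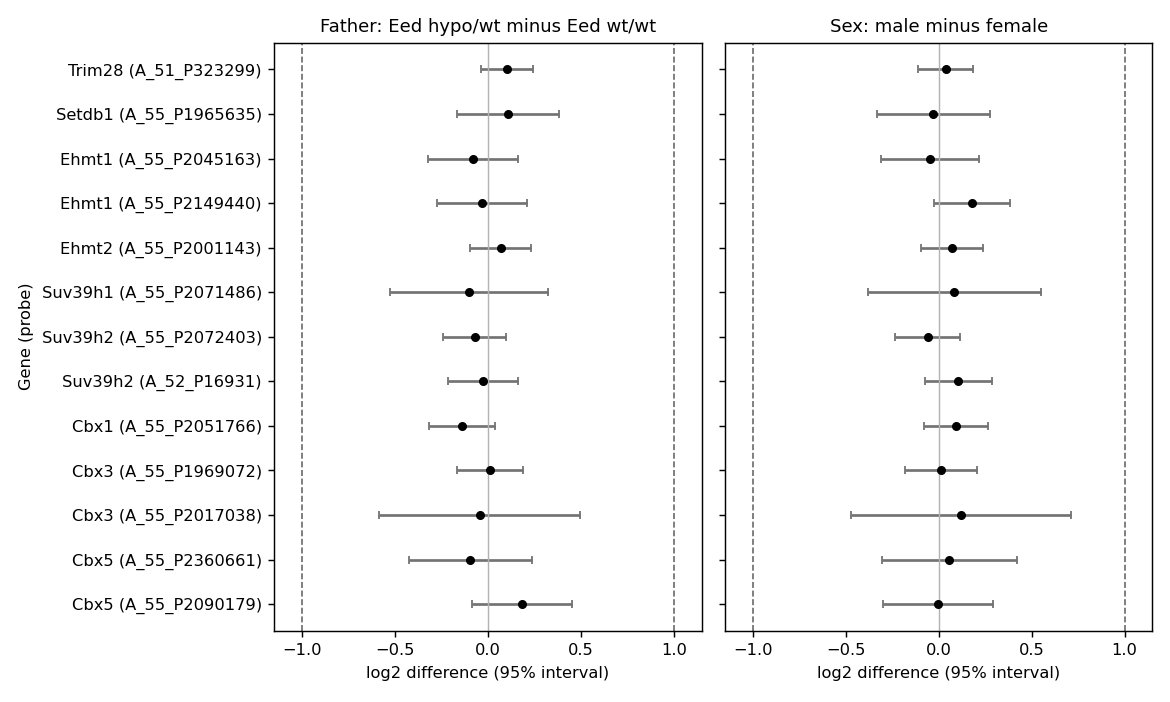
Difference in log2 level at each probe of the silencing factors by father's genotype, Eed hypo/wt minus Eed wt/wt (left), and between male and female embryos (right), from limma fits over 8 embryos; bars are 95% intervals and dashed lines mark 2-fold. Every interval crosses 0 and lies inside 2-fold in both panels, and the widest, that of the Cbx3 probe A_55_P2017038, runs from -0.58 to 0.50 on the left.

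Sex did not separate the silencing factors either, Suv39h1 on the X chromosome included. With father's genotype in the fit, 0 of the 13 probes were called between males and females, where 0.0332% of all tested probes were, and 0 had an unadjusted p under 0.05, where 3.36% did. The Suv39h1 probe averaged 2.04 ± 0.24 (SD, n = 4) in female embryos and 2.12 ± 0.31 (SD, n = 4) in male embryos. That is a male minus female difference of 0.08 (standard error 0.19, 95% interval -0.38 to 0.55). The smallest unadjusted p by sex, 0.077, was at the second Ehmt1 probe, where female embryos averaged 3.80 ± 0.07 (SD, n = 4) and male embryos 3.97 ± 0.12 (SD, n = 4) (adjusted p of 0.999 from limma). Under the scaling reported here, the interval by sex lay inside 2-fold at all 13 probes, as at 79.7% of all tested probes. The paternal difference was also tested for a change between the sexes. In this interaction 0 of 13 probes were called (0% of all tested probes) and 0 had an unadjusted p under 0.05 (2.27%). The lowest, 0.168, was at Ehmt2, where the males of Eed hypo/wt fathers were the 2 highest embryos.

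Setdb1, Suv39h1, Cbx3 and Cbx5 shared an order of embryos that cut across the father's genotype. Wild-type father replicates 1 and 4 and heterozygous father replicate 3 were the 3 highest embryos at Suv39h1, at both Cbx3 probes and at the brighter Cbx5 probe, and the 3 lowest at Setdb1. At Suv39h1 these 3 embryos averaged 2.38 and the other 5 averaged 1.90, with no value between 2.07 and 2.36. At the second Cbx3 probe the averages were 4.27 and 3.68, and at the brighter Cbx5 probe 2.75 and 2.37. Setdb1 ran the other way, at 1.56 in the 3 embryos and 1.86 in the other 5. The second Cbx5 probe did not share the order.

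The same 3 arrays had the most probes well above background, 39559, 35497 and 38898 against 29207 to 33520 on the other 5. They also had the most probes for olfactory and vomeronasal receptors well above background, 478, 185 and 544 of 1453 against 52 to 118. Of all tested probes, 17.1% were highest in these 3 embryos and 5.73% lowest, beside 4 and 1 of the 13 probes here. This shared order of Suv39h1, Cbx3, Cbx5 and Setdb1 depended on the scaling. Setdb1 was lowest in the 3 embryos under every scaling tried. Under quantile normalization the same 4 probes were highest, where 8.58% of all tested probes were highest and 10.4% lowest. With normexp and quantile normalization 3 of the 4 were highest, all but the brighter Cbx3 probe (8% of all tested probes highest, 9.31% lowest). With the percentile over detected probes the second Suv39h2 probe joined them, which made 5 (19.4% highest, 4.4% lowest). With arrays aligned on their medians 0 of the 13 probes were highest in the 3 embryos and 7 were lowest, where 2.57% of all tested probes were highest and 42.7% lowest. Whether the number of detected probes plays a part in the levels of these genes was not tested. With the 3 arrays left out, a choice made after seeing the data, 0 of the 13 probes were called by father's genotype, as were 0 of all tested probes, and 0 of the 13 had an unadjusted p under 0.05, where 5.68% of all tested probes did.

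**Figure D3:**
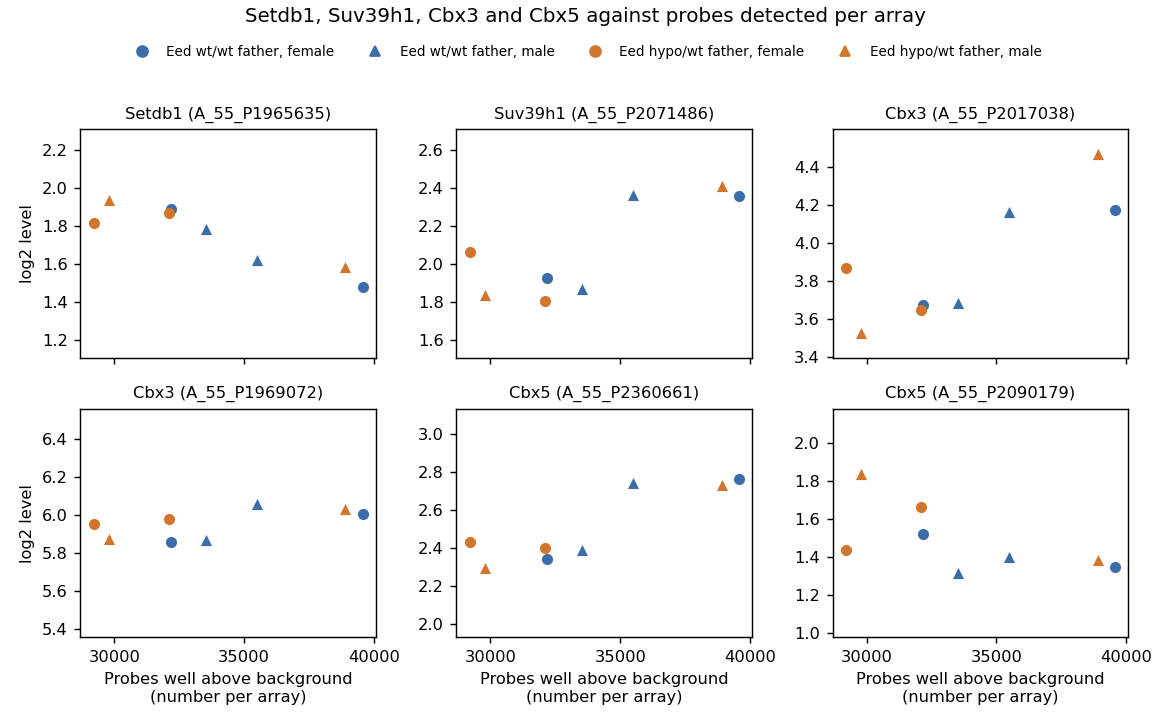
Level of Setdb1, Suv39h1, Cbx3 (2 probes) and Cbx5 (2 probes) in each embryo (log2, vertical axis, the same span in each panel) against the number of probes well above background on its array (horizontal axis); colours and shapes give father's genotype and sex. The 3 arrays with the most such probes are the 3 lowest at Setdb1 and the 3 highest at Suv39h1, at both Cbx3 probes and at Cbx5 probe A_55_P2360661, and not at Cbx5 probe A_55_P2090179.

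The genes whose levels followed those of Setdb1 and Trim28 most closely were found by the root mean square difference of centred log2 levels over the 8 embryos. Nearest to Setdb1 were Espl1 (0.0301), Itsn1 (0.0332) and Cwc25 (0.0353). Nearest to Trim28 were Psmc5 (0.0144), Psmd1 (0.0179) and Sart3 (0.0191). These are descriptions over 8 embryos that share the array scaling.

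Differences in the wider H3K9 pathway ran from -0.35 (Gatad2b) to 0.68 (Brdt) over 83 tested genes. Those of the 13 probes of the silencing factors ran from -0.14 (Cbx1) to 0.19 (the second Cbx5 probe). A range widens with the number of genes in it, so these 2 ranges are not set against each other. Some intervals were wide, as for Tex101 (-2.51 to 3.48). The 10 lists held 105 genes, of which 99 were on the array and 83 were tested, each by its brightest tested probe. None of the 83 was called. At an unadjusted p under 0.05, 3 genes lay above and 1 lay below its level in the wild-type group, 4.82% of the genes tested beside 4.34% of all probes. The median difference of the 83 genes was -0.004. Those 4 were Zfp57, Brdt, Mbd3 and Pias4, and each had an adjusted p of 1 from limma.

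Proteins that act around Setdb1 and Trim28 had list medians near 0. The 6 tested methyltransferases and partners beyond the 9, among them Wiz, the zinc finger partner of G9a, and Atf7ip, the partner that stabilises Setdb1, had a median of 0.03 and ranged from -0.18 to 0.11. The 4 tested genes of the HUSH complex and its partners, which spread H3K9 trimethylation over integrated elements, ranged from -0.01 to 0.09. The 5 other readers, Uhrf1 among them, ranged from -0.13 to 0.09, and the 11 histone chaperones and remodellers, with Atrx, Daxx, Chaf1a and Smchd1, from -0.10 to 0.15. In these 4 lists 0 genes had an unadjusted p under 0.05.

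Zfp57 is a KRAB zinc finger protein that brings Trim28 to imprinted control regions. It was the 1 of 7 tested genes with an unadjusted p under 0.05 in a list of DNA-binding recruiters and the Trim28 relatives Trim24 and Trim33. Its brighter probe measured -0.81, -0.75, -0.77 and -0.84 with Eed wt/wt fathers and -0.40, -0.56, -0.60 and -0.25 with Eed hypo/wt fathers. The groups did not overlap, and the difference was 0.34 (standard error 0.09, 95% interval 0.13 to 0.55), and the adjusted p from limma was 1. A second Zfp57 probe gave -0.07, so the probes disagreed in direction. Zfp809, which recruits Trim28 to proviruses, had a difference of -0.07. The list as a whole, Trim24 and Trim33 included, had a median of -0.03.

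Among the 11 tested subunits of NuRD, the deacetylase and remodelling complex that Trim28 binds, Mbd3 passed the unadjusted threshold. It measured 5.87, 5.81, 5.87 and 5.99 against 6.06, 6.03, 6.12 and 5.97. The groups overlapped by 1 embryo of each, the difference was 0.16 (standard error 0.07, adjusted p of 1 from limma), and a second Mbd3 probe gave -0.13. The NuRD list had a median of 0.02. SUMO attached to Trim28 lets Setdb1 bind it, and the 12 SUMO pathway genes tested also included the SUMO proteases Senp1 and Senp7. Of these 12, 1 passed, the SUMO ligase Pias4. It measured 1.06, 1.05, 1.02 and 1.18 against 0.90, 0.89, 0.98 and 0.90, groups that did not overlap, with a difference of -0.16 (standard error 0.06, adjusted p of 1 from limma). The list median was -0.07. The 11 tested H3K9 demethylases, among them Kdm1a and the Kdm3 and Kdm4 enzymes, had 0 at an unadjusted p under 0.05 and a median of -0.02.

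Genes that H3K9 methylation is known to hold silent were measured as a readout of the pathway. Of 19 such early-embryo and germline genes 18 were on the array and 11 could be tested, since the others were too dim. Those not well above background on any array included Zscan4f, Tcstv1, Tcstv3 and Dazl, genes of the 2-cell stage embryo or the germ line. Others were well above background on all 8 arrays. Among these were Zfp352, with means of 1.93 (Eed wt/wt fathers) and 1.85 (Eed hypo/wt fathers), and Taf7l, with 1.46 and 1.24. The probes of these genes therefore gave signal in these embryos. On the same arrays 52 to 544 of 1453 olfactory and vomeronasal receptor probes were also well above background. Whether the signal came from transcripts of the listed genes was not tested. Of the 11, Brdt, a testis bromodomain protein, was the 1 with an unadjusted p under 0.05. It measured -2.12, -2.71, -2.67 and -2.79 with Eed wt/wt fathers and -1.59, -1.54, -2.34 and -2.08 with Eed hypo/wt fathers. Wild-type father replicate 1 lay inside the other group, and the difference was 0.68 (standard error 0.23, 95% interval 0.15 to 1.21, adjusted p of 1 from limma). The list as a whole had a median of -0.09. Of 11 genes of the germline piRNA pathway, which silences retroelements in the testis, 5 were tested, 0 had an unadjusted p under 0.05, and their median was -2e-04.

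**Figure D4:**
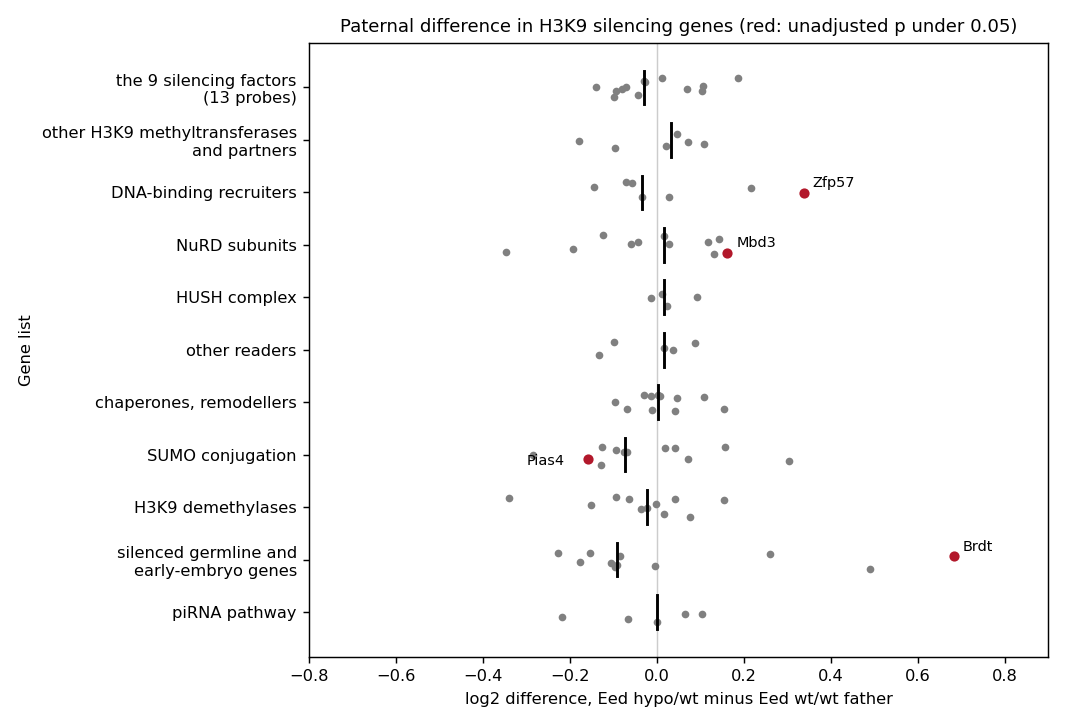
Difference in log2 level by father's genotype, Eed hypo/wt minus Eed wt/wt, for the 13 probes of the silencing factors and for 83 tested genes of 10 pathway lists; each point is a probe of the factors or the brightest tested probe of a listed gene, black bars are list medians, and red points have an unadjusted p under 0.05. The 4 red points are Zfp57 (0.34), Mbd3 (0.16), Pias4 (-0.16) and Brdt (0.68), and list medians lie between -0.09 and 0.03.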

How the data were processed

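Expression was measured in 8 wild-type E8.5 embryos, grouped by the father's genotype in their labels, with an Agilent 8x60K array for each. The authors extracted spots with Agilent Feature Extraction (version 11.0.1.1). Each deposited intensity had its background subtracted and spatial trends removed, and carried no scaling across arrays. A second deposited file lists these intensities for all embryos, and 0 of its columns were left unused. A deposited flag marks spots well above background. Probe intervals are on build mm9. The study's methods state that arrays were percentile-shifted but give neither percentile nor test.

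Each array's log2 intensities were set relative to its 75th percentile, without control or outlier spots and with repeated spots averaged. Accessions were named through a RefSeq table of assembly GRCm38.p6 (27235 of 28685 matched). The test kept 33105 probes, leaving out those in the lowest 20% by mean level or detected above background in under 4 embryos. Comparisons used limma 3.58.1 (R 4.3.3, data.table package at version 1.17.8) over all kept probes, with terms for father, father and sex, or their interaction. A call needed a 2-fold difference and an adjusted p (Benjamini-Hochberg) below 0.01. The tests were checked on simulated data. Sequence tables and figures came from Python 3.11.15 with numpy 2.4.6, pandas 2.3.3 and matplotlib 3.10.9.

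The members and lists were chosen with earlier results of these data known. All probes of the 9 genes are given. From the pathway lists, every gene with an unadjusted p under 0.05 by father was named with its values, up to 12, along with a few members of each list as examples. Alternatives were normexp (offset 50) plus quantile normalization, quantile normalization alone, shifts by the median or by a percentile of detected probes, the second deposited file, other filters, terms for sex, replicate number or embryo code, other moderation, array weights, averaged probes, and omission of embryos.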

Additional observations from a re-analysis of the deposited data

Results flagged for a closer look

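Each of 50 sets of 4 embryos was looked at for an embryo that stood apart, by its gap to the nearest of the others as a share of the range in its group. This happened in 3, and chance gives about 1 in 20, or 2.5. Receptor probes well above background numbered 544 in heterozygous father replicate 3 and 52 to 118 in the rest of its group, a share of 0.866. The median local background was 133 in heterozygous father replicate 4 and 30 to 32 in the rest, a share of 0.981. The Pias4 probe was at 0.98 in heterozygous father replicate 3 and at 0.89 to 0.90 in the rest, a share of 0.955. In these sets 0 of the 13 probes of the silencing factors had an embryo that stood apart.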

How the results depend on the processing

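No silencing factor was called by father, by sex or in their interaction under any alternative fitted. The number with an unadjusted p under 0.05 by father moved from 0 to 1 with normexp and quantile normalization (Cbx1, where 7.93% of all tested probes passed). It also reached 1 with trended and robust moderation (Trim28, 0.0468 from limma, where 4.41% passed). With array weights it was 1 as well (the second Cbx5 probe, 0.0434 from limma, where 9.15% passed). The brighter Cbx5 probe had a difference of -0.07 there, with an unadjusted p of 0.551 from limma. With each embryo omitted in turn the number was 0 to 1, reaching 1 without wild-type father replicate 3 (Cbx1, where 3.57% passed). By sex it moved from 0 to 1 with trended and robust moderation (a single Ehmt1 probe, 0.0382 from limma, where 3.45% passed). The number of probes whose groups did not overlap, 1 as reported, was 2 with normexp. It was 0 with the median shift, quantile normalization or the percentile over detected probes. With an embryo omitted it was 1 to 2 (2 when that was wild-type father replicate 3), and it was 2 without the 3 arrays with most detected probes. The share of all tested probes without overlap was not computed for these settings, so these counts are not read as a result about the silencing factors. The median difference was -0.1254 with the median shift, where that of all probes was -0.10. Its sign was not stable: -0.03 as reported, it was 0.03 with normexp, 0.04 without wild-type father replicate 4, 0.0067 without heterozygous father replicate 2 and 0.02 without the 3 arrays with most detected probes. The cause of these moves was not tested. Of single genes, 191 values kept their direction and 16 reversed. Normexp gave 0.0269 for Ehmt1, 0.004 for Suv39h2 and -0.0092 for Trim28. The median shift gave -0.0273 for Ehmt2 and -0.0834 for Cbx3. Cbx3 was -0.0019 with quantile normalization, -0.0012 with a random block for the embryo code (correlation 0.529), -0.0163 with probes of a gene averaged and between -0.0191 and 0.0486 with an embryo omitted. Cbx5 became 0.0453 with probes averaged. Ehmt1 became 0.0163 without wild-type father replicate 1 and heterozygous father replicate 3 together. Without the 3 arrays with most detected probes, Ehmt1 was 0.0188, Suv39h1 0.0045 and Cbx5 0.0101.

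Deviations of same-numbered embryos from their group means correlated at -0.55, -0.04, -0.59 and -0.15 for replicates 1 to 4. The values for replicates 1 and 3 involve the arrays with most detected probes. They therefore cannot show whether the numbers mark a pairing. With the replicate number as a block, 0 of 13 probes had an unadjusted p under 0.05 by father and the smallest was 0.227 (Cbx1), and the interaction could not be fitted with it. With 4 arrays a group and 1 slide a group, paternal differences smaller than the printed intervals could not be seen.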
